A study of Mus musculus with 30 samples.

Results

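Tgm1 and Tgm2 are mouse genes for transglutaminases, and both were picked for their large rises in reactive astrocytes, so their treatment effects are described here without a test. They are 2 of 15726 genes tested, and the array carries 7 of their probe sets with a single gene symbol, 1 for Tgm1 and 6 for Tgm2. The samples were astrocytes sorted by their green fluorescence from papain-digested brains of male young adult mice. All mice carried Tg(Aldh1l1-eGFP) OFC789Gsat on a Swiss Webster background, in which the Aldh1l1 promoter marks astrocytes. The stroke groups had a middle cerebral artery occlusion (MCAO) of 1 hr followed by reperfusion, and their sham controls had the surgery with no occlusion. The inflammation group was given 5 mg/kg of lipopolysaccharide (LPS) from Escherichia coli O55:B55 into the peritoneum, and its controls were given endotoxin-free saline. Cells were taken 1 day after injection (5 LPS and 4 saline arrays), 1 day after surgery (5 MCAO and 4 sham arrays), and 3 and 7 days after surgery (3 MCAO and 3 sham arrays each time). The 30 arrays are named biological replicates, with no statement of how many mice went into each, so errors and p-values describe how far these samples spread, which may be partly technical. The sorted cells are a bulk sample, in which a smaller share of cells of a type and less RNA per cell cannot be told apart.

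Transglutaminases are calcium-dependent enzymes that join the glutamine of a protein to the lysine of another, or to a polyamine, and so leave a covalent crosslink. Tgm1 is best known as the membrane-anchored enzyme that builds the cornified envelope of skin keratinocytes. Tgm2, also called tissue transglutaminase, is made by many cell types, endothelial cells among them, binds GTP as well as calcium, and also works at the cell surface with fibronectin and integrins.

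Tgm1 lies on chromosome 14 from 55700009 to 55713921 and Tgm2 on chromosome 2 from 158116405 to 158146392, both in RefSeq's GRCm38.p6. The promoter table used here held 1 of the 2 genes, Tgm1, with 2 start sites. The 250 bases before the upstream site, at chr14:55713493-55713742 on the minus strand and inside the annotated gene, are shown because Tgm1 had the larger stroke response. Capitals mark every match to 9 motifs searched on both strands.
Tgm1 promoter, upstream start site: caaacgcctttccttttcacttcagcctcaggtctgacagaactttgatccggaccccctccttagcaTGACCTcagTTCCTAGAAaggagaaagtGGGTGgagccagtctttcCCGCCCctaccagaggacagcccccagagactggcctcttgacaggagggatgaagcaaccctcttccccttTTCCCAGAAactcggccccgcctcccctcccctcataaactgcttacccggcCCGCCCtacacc
The motifs were AP-1 (TGANTCA), STAT (TTCNNNGAA), NF-kappaB (GGANTTTCC), C/EBP (TTGCNNAA), KLF (CACCC), the GC box (GGGCGG), the TATA box (TATAAA), a nuclear receptor site (AGGTCA) and a hypoxia element (ACGTG). STAT matched at 173 and at 64 bases before the start, and 7.02% of the 32851 windows of this length in the table held a STAT match. The GC box matched at 136 and 12 bases before the start (32.7% of windows), the receptor site at 182 (14% of windows) and the KLF motif at 154 (52.0% of windows). No 2 matches overlap. These are matches of letters and were not measured as binding sites.

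Tgm1 was among the genes with the greatest difference after stroke and stayed far above sham for a week. Its log2 intensity at 1 day was 12.40, 12.10, 11.84, 12.39 and 10.87 in the 5 MCAO arrays. In the 4 sham arrays of that day it was 6.13, 5.83, 6.67 and 5.88. All MCAO arrays lay above all sham arrays, with a gap of 4.20 between the lowest MCAO and the highest sham array; 12.1% of all genes tested had every MCAO array above every sham array at 1 day. The difference was 5.79 ± 0.66 (log2, SE, n = 5 and 4), or 55.4-fold, the 4th highest of 15726 genes.

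At 3 days the Tgm1 log2 intensity was 11.81, 12.59 and 9.68 in MCAO arrays. In sham arrays of that day it was 5.95, 5.81 and 9.45. The groups did not overlap, which held for 5.74% of genes, but array 3 of the sham group lay within 0.23 of array 3 of the MCAO group. The difference was 4.29 ± 0.81 (SE, n = 3 and 3), or 19.6-fold. It was 5.48 without the 3rd sham array and 6.32 without the 3rd arrays of both groups.

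Those 3rd arrays stood apart in brightness and, in the sham group, in markers of other cells. The brightest probe set reached 34303 and 35230 on them, against 20311 to 24192 on the other 3-day arrays. The mean log2 intensity of 5 oligodendrocyte precursor markers was 9.06 on the 3rd sham array, against 6.41 and 6.21 on the other sham arrays and 7.60 to 8.30 on the MCAO arrays. The mean of 6 fibroblast markers was 9.34 on it, against 7.76 and 7.56. Their part in the Tgm1 value was not tested.

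At 7 days the Tgm1 log2 intensity was 9.05, 10.23 and 9.82 in MCAO arrays. In sham arrays it was 5.78, 5.93 and 5.93. Every MCAO array was above every sham array, as for 9.65% of genes. The difference was 3.82 ± 0.81 (SE, n = 3 and 3), or 14.1-fold, the 3rd highest of all genes tested.

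LPS gave a smaller and more variable Tgm1 response. The log2 intensity was 11.09, 8.91, 8.52, 6.91 and 8.34 in the 5 LPS arrays. It was 5.86, 6.44, 6.73 and 6.0 in the 4 saline arrays. The lowest LPS array lay 0.18 above the highest saline array, and 1.88% of genes had every LPS array above every saline array. The difference was 2.50 ± 0.66 (SE, n = 5 and 4), or 5.64-fold, which ranked 53rd. It was 3.36 among the 3 LPS and 2 saline arrays of the brighter set and 1.26 among the 2 LPS and 2 saline arrays of the dimmer set, the sets being defined by the brightest probe set of each array.

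Tgm1 therefore leaned towards stroke: its effect after MCAO exceeded its effect after LPS by 3.30 ± 0.94 on the log2 scale at 1 day, or 9.82-fold. Nearly all of this lay in the treated groups, whose means were 3.17 apart. Sham minus saline was -0.13 ± 0.70 (SE, n = 4 and 4), given without a test because the same control arrays enter the effects for which the genes were picked. From lowest to highest mean the groups ran sham 7 days (5.88), sham 1 day (6.13), saline (6.26), sham 3 days (7.07), LPS (8.75), MCAO 7 days (9.70), MCAO 3 days (11.36) and MCAO 1 day (11.92). Each neighbouring pair in this order overlapped. All surgery arrays of 1 day were of the brighter set and all arrays of 7 days of the dimmer set, with the other groups mixed. Differences between these days therefore cannot be told apart from the set.

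**Figure D1:**
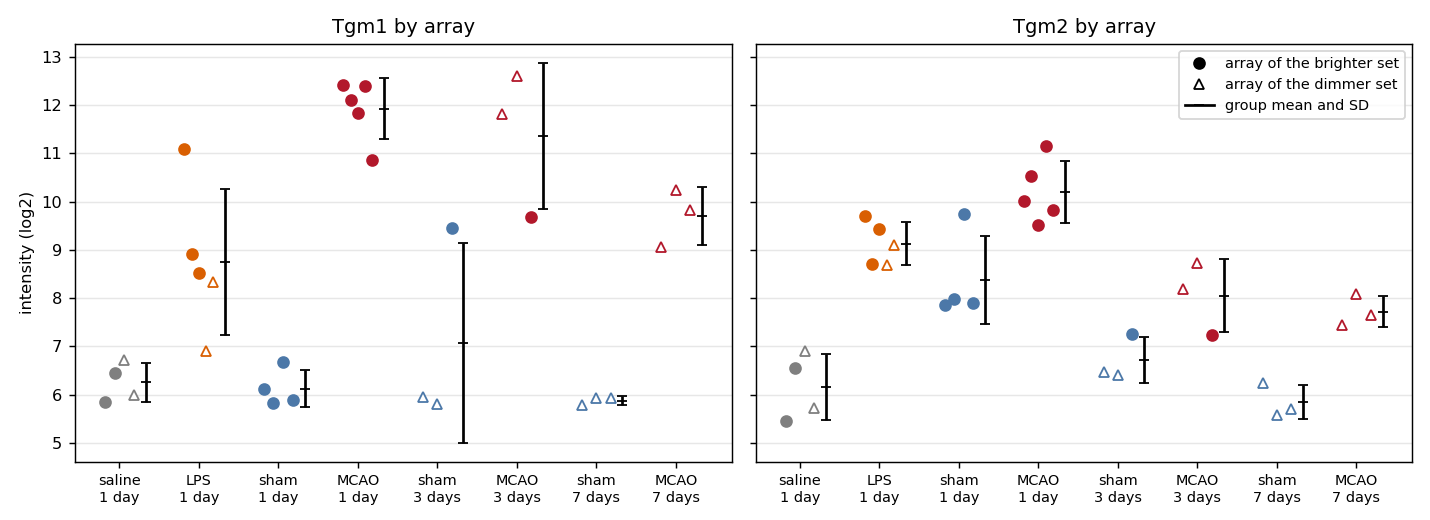
Log2 intensity of Tgm1 (left) and Tgm2 (right, its brightest probe set) on each of 30 arrays in 8 groups, with the group mean and SD beside the points; filled circles are arrays of the brighter set and open triangles arrays of the dimmer set. Tgm1 is near 6 in all control arrays except the 3rd sham array at 3 days (9.45), whereas Tgm2 is higher in the sham arrays of 1 day (7.86 to 9.75) than in saline arrays (5.46 to 6.91).

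Tgm2 differed from its controls in both injuries, most after LPS, and was already high 1 day after sham surgery. Its level is given first for the probe set with the highest mean, 1433428_x_at. The log2 intensity at 1 day was 10.01, 10.52, 9.52, 11.15 and 9.83 in MCAO arrays. In the sham arrays it was 7.86, 7.99, 9.75 and 7.91. The 3rd sham array reached into the MCAO range, so 4 of 5 MCAO arrays lay above all sham arrays. The difference was 1.83 ± 0.39 (SE, n = 5 and 4), or 3.55-fold.

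The numbers in the sample descriptions pair 4 MCAO arrays of 1 day with 4 sham arrays. The Tgm2 difference within these pairs was 2.66, 1.53, 1.40 and 1.93, higher in MCAO in 4 of 4. The pair numbered 4 held the highest Tgm2 of both groups, MCAO array 4 and sham array 3. Tgm1 differed within the same pairs by 5.97, 6.0, 5.72 and 4.99.

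At 3 days Tgm2 was 8.18, 8.73 and 7.25 in MCAO arrays. In sham arrays it was 6.48, 6.41 and 7.27. The 3rd arrays of both groups were level, and the groups overlapped. The difference was 1.34 ± 0.47 (SE, n = 3 and 3), or 2.53-fold, and 2.02 without the 3rd arrays of both groups. At 7 days Tgm2 was 7.44, 8.08 and 7.64 in MCAO arrays. In sham arrays it was 6.25, 5.58 and 5.70. These groups did not overlap, and 9.65% of genes had every MCAO array above every sham array at 7 days. The difference was 1.88 ± 0.47 (SE, n = 3 and 3), or 3.68-fold.

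After LPS, Tgm2 was 9.70, 8.70, 9.44, 8.68 and 9.10 in the 5 arrays. In the 4 saline arrays it was 5.46, 6.55, 6.91 and 5.73. Every LPS array lay above every saline array, as for 1.88% of genes. The difference was 2.96 ± 0.39 (SE, n = 5 and 4), or 7.80-fold, the 33rd highest of all genes. Among the brighter arrays it was 3.28 and among the dimmer arrays 2.58.

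By its effects Tgm2 leaned the other way from Tgm1: the stroke effect minus the LPS effect was -1.14 ± 0.55 on the log2 scale, 2.20-fold in favour of LPS, and -0.68 without sham array 3. By its levels it did not, since the mean after MCAO (10.21) was 1.08 above the mean after LPS (9.13), with overlapping arrays. The opposite sign lies in the controls. Tgm2 was higher in sham arrays of 1 day than in saline arrays by 2.22 ± 0.41, or 4.64-fold (SE, n = 4 and 4), again a description. All 4 sham arrays lay above all saline arrays, as for 8.29% of genes. The difference was 1.31 to 2.46 over 17 alternatives, and 2.37 among the brighter arrays alone (4 sham and 2 saline). Against saline, the MCAO arrays were 4.04 higher in Tgm2 and 5.66 higher in Tgm1 on the log2 scale.

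The sham arrays of 1 day also held more endothelial transcript. The mean log2 intensity of 8 endothelial markers was 5.38 to 6.0 in saline arrays, 5.74 to 6.68 in LPS arrays, 7.42 to 9.16 in sham arrays of 1 day and 6.99 to 9.49 in MCAO arrays of 1 day. Of the 8 markers, 6 were called higher in sham than in saline arrays by limma, where called means a p-value adjusted by Benjamini-Hochberg under 0.05; of all genes tested, 2.92% were called higher and 2.19% lower. Among the 6 were Cldn5, a tight junction protein, by 3.85 ± 0.55, and the transporter Slco1a4 by 3.42 ± 0.42. Of the surgical arrays of 1 day, sham array 3 and MCAO array 4 had the highest endothelial mean and the highest Tgm2 of their groups. These arrays were also highest in their groups for neuron (9.99 and 9.65), oligodendrocyte (11.39 and 11.05) and pericyte and smooth muscle means (8.71 and 8.96). Marker means of neurons (8.17 to 9.99 against 7.13 to 8.58), oligodendrocytes (9.61 to 11.39 against 8.19 to 9.19) and pericytes and smooth muscle (7.71 to 8.71 against 6.44 to 7.29) were also higher in sham arrays of 1 day than in saline arrays. The mean of 9 microglia and macrophage markers was 5.771 to 6.384 in sham arrays of 1 day and 5.335 to 5.731 in saline arrays. The part of these other cells in the Tgm2 values was not tested.

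Across the 30 arrays Tgm2 correlated with the endothelial mean at Pearson r = 0.72, and at 0.71 after removing the group means; Tgm1 did so at 0.36 and 0.27. These values are descriptions over arrays that share groups and sorts, and correlations with the other marker means are not given. At 7 days the endothelial mean was 5.58 to 5.88 after MCAO and 5.64 to 5.84 after sham, and Tgm2 was 1.88 higher after MCAO. The mean of 5 oligodendrocyte precursor markers was 7.92 to 8.29 after MCAO and 6.31 to 6.53 after sham at 7 days, with C1ql1 called, and that of 6 fibroblast markers was 7.87 to 9.10 and 7.14 to 7.99. Their part in the 7-day values of Tgm1 and Tgm2 was not tested. The astrocyte marker mean was 12.44 to 14.01 on all 30 arrays, lowest on LPS array 5. That mean includes Gfap, called higher by 1.69 after MCAO at 1 day and by 1.87 after LPS. Every other marker of the list was lower after MCAO at 1 day, from -0.11 to -0.54, with Slc1a3 called (-0.52 ± 0.15). The mean of 9 microglia and macrophage markers was 5.27 to 6.56 over all 30 arrays. Of these 9, only Cd68 was called after MCAO at 1 day, higher by 1.98 ± 0.26 (limma, adjusted p = 9.14e-06). Its part in the values of Tgm1 and Tgm2 was not tested. Of 8 endothelial, 6 pericyte and smooth muscle and 6 fibroblast markers, Vwf (1.58), Tagln (1.53) and Col6a1 (2.17) were called higher after MCAO at 1 day. Tagln (2.46) and Col6a1 (1.48) were called higher at 3 days, and Rgs5 (1.98) after LPS. Of all genes, 6.49%, 0.61% and 2.37% were called higher in these comparisons. The part of these markers was not tested.

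Markers of neutrophils and monocytes were low, and 2 of the 6 tested were called, both after MCAO at 1 day. Their mean over 6 genes was 5.86 to 6.07 after MCAO and 5.60 to 5.70 after sham at 1 day. S100a8 and Il1r2 were called higher, each by 0.87, beside 6.49% of all genes. The others were not called: S100a9 differed by 0.24, Mpo by -0.07, Cxcr2 by -0.04 and Ccr2 by -0.01. After LPS the mean was 5.62 to 6.54, against 5.34 to 5.69 after saline, and 0 of the 6 were called. The part of these cells in the values of Tgm1 and Tgm2 was not tested.

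**Figure D2:**
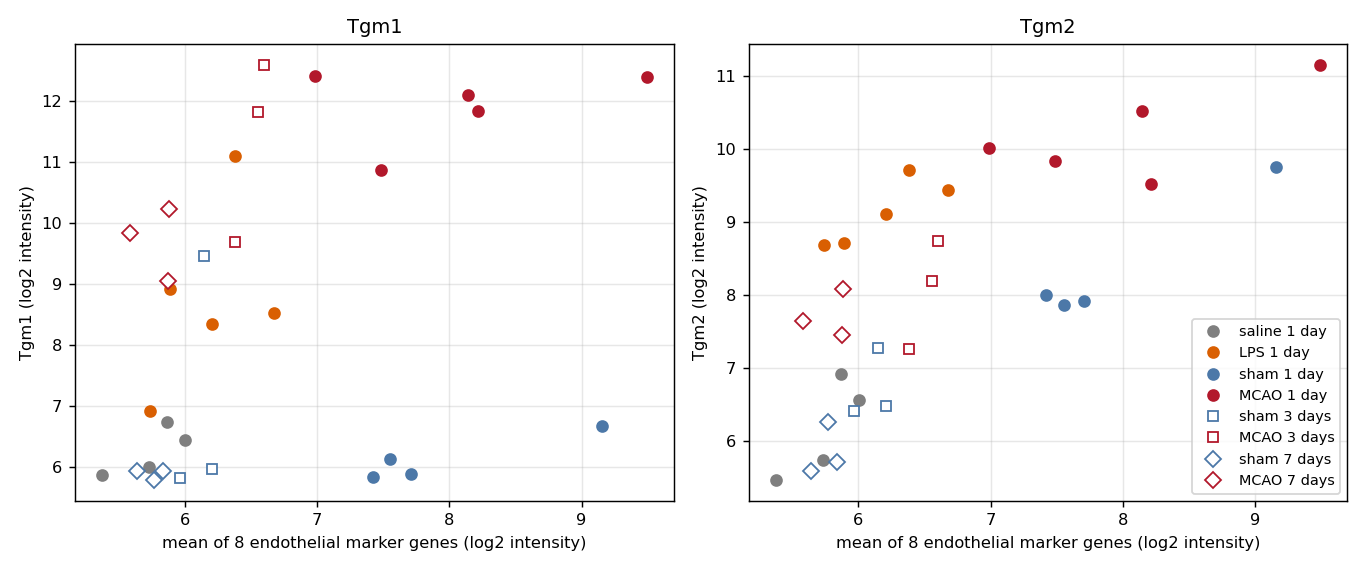
Log2 intensity of Tgm1 (left) and Tgm2 (right) against the mean log2 intensity of 8 endothelial marker genes, 1 point per array, coloured by treatment and shaped by day. Sham arrays of 1 day (filled blue) have endothelial means of 7.42 to 9.16, with Tgm1 at 5.83 to 6.67 and Tgm2 at 7.86 to 9.75.

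From lowest to highest mean, Tgm2 ran sham 7 days (5.84), saline (6.16), sham 3 days (6.72), MCAO 7 days (7.72), MCAO 3 days (8.05), sham 1 day (8.38), LPS (9.13) and MCAO 1 day (10.21). Of the neighbours in this order, only sham 3 days and MCAO 7 days did not overlap. As for Tgm1, surgery arrays of 1 day were all of the brighter set and those of 7 days all of the dimmer set. Day and set cannot be told apart in this order.

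The 6 Tgm2 probe sets fell into 2 kinds. Of these, 1433428_x_at, 1437277_x_at and 1455900_x_at, correlated with each other at r = 0.99 over 30 arrays, and the x in their names marks probes that may also match other transcripts. The set 1417500_a_at, whose name has no such mark, correlated with the main one at 0.91. Its differences were 2.33 ± 0.33 after LPS and, after MCAO, 1.59 ± 0.33, 0.98 ± 0.40 and 0.73 ± 0.40 at the 3 times in order. Its sham minus saline difference was 0.94 ± 0.35, smaller than that of the main set (2.22), and its stroke effect minus LPS effect was -0.74 ± 0.46.

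The other 2 probe sets showed little. The set 1426004_a_at differed by 0.37 ± 0.22, 0.32 ± 0.27 and 0.24 ± 0.27 after MCAO at 1, 3 and 7 days and by 0.60 ± 0.22 after LPS. The set 1438942_x_at stayed at group means of 4.09 to 4.38, below the level of 5 that a gene had to reach on 3 arrays to be tested, with differences of 0.08 to 0.25. The LPS difference was the largest of the 4 comparisons in all 6 probe sets. The stroke effect minus the LPS effect was below 0 in all 6, from -0.17 to -1.14. In 1426004_a_at the intensity on LPS array 5 was 139, against 47 to 83 on the other LPS arrays. In 1438942_x_at it was 30, against 18 to 21. The median intensity of that array was 94. Differences of these 2 sets without it are not given, so they add little to the count of 6.

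**Figure D3:**
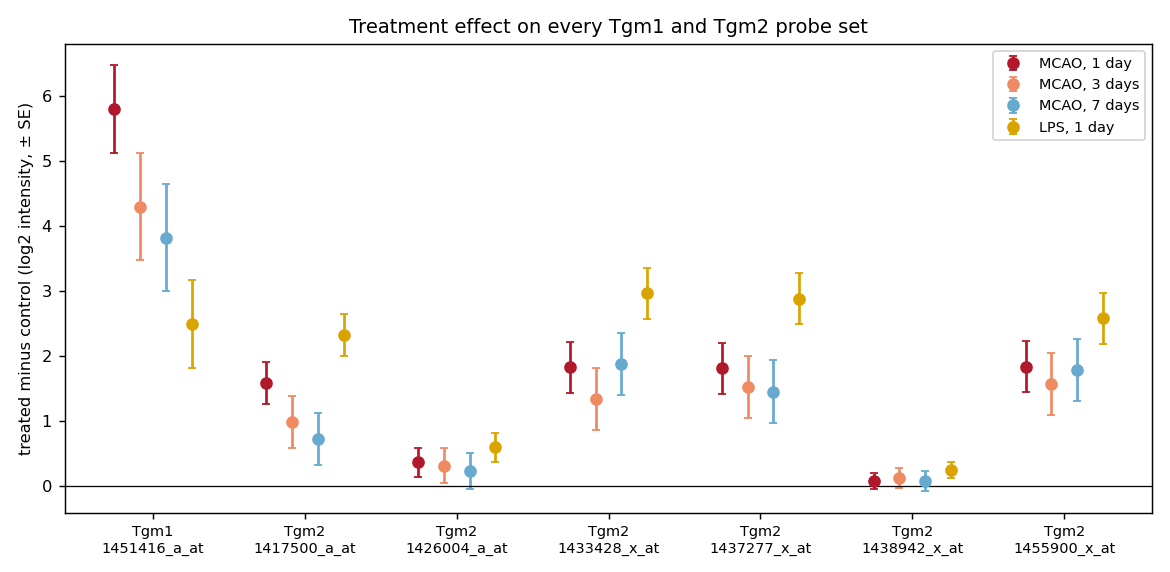
Treated minus control difference in log2 intensity, with its SE, for the single Tgm1 probe set and the 6 Tgm2 probe sets after MCAO at 1, 3 and 7 days and after LPS at 1 day. Tgm1 has its greatest difference after MCAO at 1 day (5.79), and every Tgm2 probe set has its greatest after LPS. In 1426004_a_at and 1438942_x_at, LPS array 5 lay above the other LPS arrays.

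The other family members measured had low intensities and none was called, a count near the share of all genes called. The 6 other members measured were Tgm3, an enzyme of hair and skin; Tgm4, the prostate enzyme; Tgm5, also epidermal; Tgm6, a neuronal enzyme; F13a1, the catalytic subunit of coagulation factor XIII; and Epb42, a red cell membrane protein that has lost the activity. By limma 0 of 6 were called in any of the 4 comparisons and 0 had an unadjusted p under 0.05. Of all genes, 6.49% were called higher and 6.17% lower in the MCAO arrays of 1 day, 0.61% and 0.0636% in those of 3 days, and 0.0254% and 0% in those of 7 days; LPS gave 2.37% and 0.744%. F13a1, which macrophages also make, differed by 0.29 ± 0.46 after LPS and by -0.20 ± 0.46, 0.34 ± 0.56 and 0 ± 0.56 at the 3 times after stroke. The widest difference among the 6 was that of Tgm4 at 3 days, -0.35 ± 0.23 (limma, adjusted p = 0.773). Group mean intensities of the 6 ran from 26 (Tgm4, MCAO 3 days) to 78 (Tgm6, LPS), beside array medians of 68 to 94. At such levels low expression and lack of a response cannot be told apart.

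**Figure D4:**
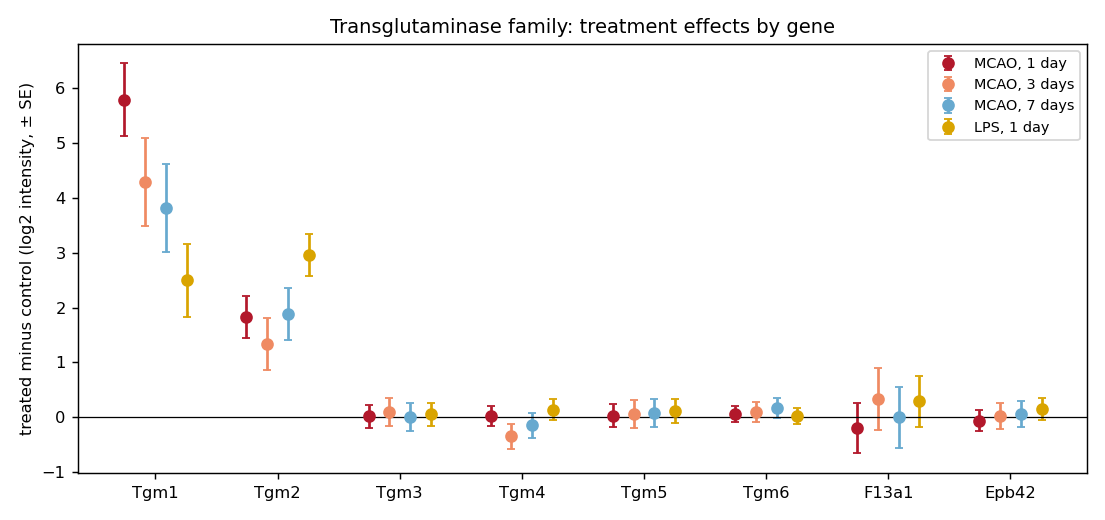
Treated minus control difference in log2 intensity, with its SE, for the 8 measured genes of the transglutaminase family in 4 comparisons. Tgm1 and Tgm2 are above 0 in all 4, and the other 6 genes lie between -0.35 and 0.34. Those 6 had low group mean intensities, 26 to 78.

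The count of called Tgm1 substrates of skin lay near the share of all genes. Of 12 cornified envelope genes listed, 9 were tested, and only Sprr1a, a small proline-rich precursor of the envelope, rose after MCAO at 1 day (1.29 ± 0.28; limma, adjusted p = 0.00191), with 0 called in the other 3 comparisons and 0 there with an unadjusted p under 0.05. Of all genes, 6.49% were called higher after MCAO at 1 day. The list's median difference at 1 day was 0.06, beside -0.05 for all genes. Involucrin (Ivl), its classical substrate, differed by 0.02 and loricrin (Lor) by 0.45 at 1 day, neither called. Both were added for their role after the values were seen. Group means of some envelope genes lay near or below the filter level of log2 5, such as Ivl at 4.82 to 5.30. The mean of 4 keratinocyte markers was 5.71 to 5.92 after MCAO at 1 day and 5.90 to 6.04 after sham.

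Of 14 intracellular proteins reported as transglutaminase substrates, 11 were tested, and at 1 day 6 rose and 1 fell after MCAO. Of all genes, 6.49% were called higher and 6.17% lower in that comparison. The list's median difference was 1.10, beside -0.05 for all genes. This list, like the others here, was chosen with earlier results of these data known, so its count is a description. The 4 with the greatest change were S100a10, the annexin A2 partner (5.33 ± 0.48), the small heat shock protein Hspb1 (4.22 ± 0.52), galectin-3, Lgals3 (3.76 ± 0.60), and the intermediate filament vimentin, Vim (3.12 ± 0.49). Outside the rule of 4 names per list, Anxa1 and Cryab also rose and Map3k12 fell by 0.81; the Cryab call was lost on leaving out any of 8 of the 9 arrays, and the Map3k12 call on leaving out any of 3. Both were also lost when all probe sets of a gene were averaged (adjusted p = 0.127 and 0.245). Vimentin and several others of this list are also known as general marks of astrocyte reactivity.

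At 3 days S100a10 (3.66 ± 0.59), Lgals3 (3.17 ± 0.73) and Hspb1 (2.66 ± 0.64) rose. Of all genes, 0.61% were called higher at 3 days and 2.37% after LPS. The 3 calls at 3 days were lost on leaving out the 1st or the 2nd sham array. Those of Lgals3 and Hspb1 were also lost without the 1st or the 2nd MCAO array. With the 6 arrays of that day alone each of the 3 genes had a limma adjusted p of 0.437. After LPS, Hspb1 (3.28 ± 0.52), Vim (2.21 ± 0.49) and S100a10 (2.11 ± 0.48) rose, the last not without saline array 4 and Vim not with averaged probe sets (adjusted p = 0.0575). Lgals3 was not called after LPS, at -0.51 ± 0.60 (limma, adjusted p = 0.725). At 7 days 0 of 11 were called by limma and 5 had an unadjusted p under 0.05, all higher. In 7 of 18 alternatives 1 or more were called at 7 days, with 6 when the arrays of that day were fitted alone and 7 with array weights.

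Among 13 extracellular proteins crosslinked or bound by Tgm2 or factor XIII, 8 were tested. After MCAO at 1 day 2 were called higher, beside 6.49% of all genes. Igfbp3, an insulin-like growth factor carrier, rose after MCAO by 2.87 ± 0.67 at 1 day. It rose by 3.48 ± 0.81 at 3 days, a call lost without either the 1st or the 2nd array of either group and at an adjusted p of 0.44 with the 6 arrays of that day alone. Fibronectin, Fn1, rose by 1.26 ± 0.41 at 1 day, a call lost on leaving out any of 5 of the 9 arrays. With description numbers as a block, 5 genes of this list were called at 1 day in place of 2. By limma 0 were called at 7 days and after LPS, where 4 and 1 had an unadjusted p under 0.05, all higher; with the arrays of 7 days alone 3 were called. The fibroblast marker mean, from cells that make much of this matrix, was 6.99 to 7.86 after MCAO and 6.77 to 6.94 after sham at 1 day; its part was not tested.

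Cell surface partners of Tgm2 differed in both directions after MCAO at 1 day. All 10 listed were tested, and 2 fell at 1 day: Mfge8, a bridging protein of phagocytosis, by 1.08 ± 0.29, and Adgrg1, an adhesion receptor that binds Tgm2, by 0.89 ± 0.26, the latter call lost without any of 4 of the 9 arrays. Of all genes, 6.17% were called lower at 1 day. At an unadjusted p under 0.05 by limma 3 partners were lower and 1 higher. The list's median difference was -0.14, beside -0.05 for all genes. With the block of description numbers 6 partners were called, higher and lower counted together. The syndecan Sdc4, a heparan sulfate carrier, rose after LPS by 0.91 ± 0.24 (limma, adjusted p = 0.0346), a call lost on leaving out any of 7 of the 9 arrays, and at adjusted p-values of 0.066 to 0.211 with median centring, quantile normalisation, averaged probe sets or the injection arrays alone. By limma 0 were called at 3 and 7 days, with 1 and 0 at an unadjusted p under 0.05.

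Polyamines are amine donors for these enzymes, and 7 of 10 genes of their synthesis and turnover were tested. After MCAO at 1 day 2 were called higher, beside 6.49% of all genes. Odc1, the rate-limiting ornithine decarboxylase, rose after MCAO at 1 day by 2.21 ± 0.38 (limma, adjusted p = 0.000229). Srm, spermidine synthase, rose by 0.79 ± 0.22, a call lost without MCAO array 4, and with the block 4 genes were called in place of 2. Smox, spermine oxidase, rose after LPS by 0.80 ± 0.18, a call lost without saline array 3 or saline array 4 and when all probe sets of a gene were averaged (adjusted p = 0.833) or the injection arrays were fitted alone (0.468). By limma 0 were called at 3 and 7 days, with 2 and 1 at an unadjusted p under 0.05.

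Of 22 receptors, cytokines and transcription factors known to act on Tgm1 or Tgm2 transcription, 21 were tested, and 6 rose after MCAO at 1 day. Of all genes, 6.49% were called higher in that comparison. The list's median was 0.26, beside -0.05 for all genes. The 4 with the greatest change were the cytokine Il6 (4.46 ± 0.56), the AP-1 subunit Fosl1 (3.28 ± 0.30), Cebpb (1.63 ± 0.44) and the TGF-beta mediator Smad3 (0.92 ± 0.23); the Cebpb call was lost without sham array 4. Rela and Il6st, outside the rule of 4 names, rose by 0.78 and 0.67, the latter not without sham array 2 or with averaged probe sets (adjusted p = 0.0626). With the block 10 genes were called.

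Fosl1 also rose at 3 days (2.14 ± 0.37), a call lost without MCAO array 2 or without sham array 1 or 2, and at an adjusted p of 0.437 with the 6 arrays of that day alone. Smad3 rose after LPS (1.39 ± 0.23; limma, adjusted p = 0.000557), with an adjusted p of 0.0896 when its probe sets were averaged and 0.103 with the LPS and saline arrays alone. At 7 days 0 of 21 were called by limma and 1 had an unadjusted p under 0.05. Stat3, named after its values were seen because of the STAT matches in the Tgm1 promoter, differed by 1.41 ± 0.54 after MCAO at 1 day (adjusted p = 0.0896) and by 1.59 ± 0.54 after LPS (adjusted p = 0.113), neither called.

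Over the 30 arrays Tgm1 and Tgm2 correlated with each other at r = 0.72, and Tgm2 ranked 353rd among the genes closest to Tgm1. The genes most like Tgm1 were S1pr3, a sphingosine 1-phosphate receptor (0.95), the cytoskeletal regulator Dpysl3 (0.95), the chemokine Ccl2 (0.95), S100a10 (0.94) and Anxa2 (0.93). S1pr3 came closest to Tgm1 in size too, with differences of 5.51, 3.78 and 4.08 after MCAO at 1, 3 and 7 days and 2.68 after LPS. The genes most like Tgm2 were the cell cycle inhibitor Cdkn1a (0.93), Cpne8 (0.91), the oncostatin M receptor Osmr (0.91), the adhesion molecule Icam1 (0.91) and Pros1, protein S (0.90). Membership of this list is unstable: 2 to 5 of the 5 remained on leaving out 1 array, and 0 remained when likeness was taken over the 8 group means. For Tgm1, 4 or 5 remained on leaving out 1 array and 3 over group means. Cdkn1a differed by 2.56 after MCAO and 3.52 after LPS at 1 day. All 10 correlations rest on arrays that share the groups and their controls.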

How the data were processed

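The authors deposited 1 intensity per probe set and array of an Affymetrix mouse expression array, on the linear scale as whole numbers from 9 to 35553, normalised with RMA per the submitters' processing notes. Total RNA of about 20 ng was amplified in 2 cycles, per the labels' protocols. The members and gene lists were chosen with earlier results of these data known. The deposited intensities were converted to log2. Of 45037 probe sets, 34945 carried 1 gene symbol, 932 several and 9160 none, and the identifiers of 34741 matched RefSeq. A gene was its probe set with the highest mean over 30 arrays, and 15726 of 18193 genes reached log2 5 on 3 arrays. limma 3.58.1 in R 4.3.3 fitted 1 model over 8 groups, with 22 residual and 4.55 prior degrees of freedom, so each SE rests on a variance pooled over groups. Sham minus saline, planned as a test for the members, is given without its p because the rule's effects use those arrays. Adjusted p-values are Benjamini-Hochberg over all genes tested. On simulated data with 100 genes changed by each size at 1 day after MCAO, 60 at log2 1 and 98 at log2 2 were called, with 9 false calls. Named genes are the members, the family, up to 4 called genes per list and comparison with the greatest change, and the 5 genes of highest r to each member. Beside these, genes named for another reason are marked as such. The labels do not explain the numbers in the sample descriptions. Surgery arrays of 1 day with the same number had correlated deviations from the group means (r = 0.23, 0.19, 0.50 and 0.16). At 3 days r was 0.185, 0.027 and 0.208, and at 7 days 0.375, 0.309 and 0.004. All pairs of 1 day exceeded r = 0.1, but not every pair of 3 or of 7 days did. There is no read depth here; the precision is limited by how many arrays a group has. The median intensity was 68 to 73 on 29 arrays and 94 on LPS array 5. Alternatives changed the normalisation, the probe set rule, the filter, the arrays used, the block and array weights. Those on array brightness were added after seeing the data, with 16 arrays above and 14 below a brightest probe set of 28000. No sequence of Tgm2 and no protein sequence was used here.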

Additional observations from a re-analysis of the deposited data

Results flagged for a closer look

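Among 32 sets of 4 or 5 arrays (8 family genes in the 4 groups of 1 day), 3 held an array farther from the others than Dixon's 95% limit, and chance alone marks about 1 in 20. Tgm2 was 9.75 on sham array 3 at 1 day, against 7.99 on the next and 7.86 on the lowest. That array also had the highest endothelial (9.16), neuron (9.99) and oligodendrocyte (11.39) means of its group. Tgm6 was 6.92 on LPS array 5, against 6.17 on the next, and Epb42 was 6.27 on the same array, against 5.17 on the next. LPS array 5 had a median intensity of 94, against 68 to 73 on all other arrays.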

How the results depend on the processing

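Every effect of Tgm1 and Tgm2 in the 4 comparisons kept its sign under each alternative run, except that of Tgm2 at 3 days with the brighter arrays alone (1 MCAO and 1 sham array, -0.019). For Tgm1 at 3 days, the value was 0.23 with the brighter arrays alone, 6.32 with the dimmer arrays alone or without the 3rd arrays of both groups, 5.82 with array weights, and 3.66 to 5.48 on leaving out each array. For Tgm2 at 3 days it was 2.02 with the dimmer arrays alone or without the 3rd arrays. The Tgm1 effect of LPS was 1.26 with the dimmer arrays alone. Averaging the 6 probe sets gave Tgm2 1.03 at 7 days and 1.93 after LPS. Tgm1 in sham minus saline ranged from -0.309 to 0.029 on leaving out each array, turning positive without saline array 3. Preference kept its sign in 28 of 28 alternatives for each gene, from 2.44 to 3.88 for Tgm1 and from -1.45 to -0.68 for Tgm2. With a block of description numbers, the 1-day effects were 5.67 for Tgm1 and 1.88 for Tgm2, and with title numbers, which do not pair these arrays, 6.05 and 1.92. No other family member was called under any alternative. Counts of called list genes changed by more than 1.5 times with array weights, which gave 11 regulators in place of 6 at 1 day and 8 intracellular substrates in place of 3 at 3 days, and with the compared groups alone. The latter gave, at 1 day, 10 regulators in place of 6, 6 partners, 5 matrix and 5 polyamine genes in place of 2 each, and 2 envelope genes in place of 1. It gave 0 at 3 days in place of 3 intracellular, 1 matrix and 1 regulator gene. At 7 days it gave 6 intracellular, 3 matrix, 1 polyamine and 1 regulator gene in place of 0, and after LPS 0 partners, polyamine genes and regulators in place of 1 each. Other alternatives also moved these small counts. Quantile normalisation gave 2 matrix genes at 3 days in place of 1 and 2 intracellular genes at 7 days in place of 0. Median centring gave 0 partners after LPS in place of 1. The matrix count at 3 days changed by more than 1.5 times in 14 of 20 alternatives, and the partner count after LPS in 15 of 20. The causes were not tested. Whole-number intensities near the floor and 3 arrays a group at 3 and 7 days limit what small differences can be seen.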
